A study of Mus musculus with 6 samples.

Results

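The hexosamine pathway was examined in mouse liver through 10 genes, *Pgm3* and 9 others chosen for what their enzymes do: *Gfpt1*, *Gfpt2*, *Gnpnat1*, *Uap1*, *Uap1l1*, *Nagk*, *Amdhd2*, *Gnpda1* and *Ogt*. They were matched by gene symbol and are 10 of 35540 symbols in the table, with 71 of its 116748 transcripts. *Pgm3* mRNA was lower in every *Surf4* fl/fl Alb-Cre+ mouse than in every Alb-Cre- mouse, with means of 7.38 and 16.3 TPM (an mRNA level corrected for transcript length, on a total that is equal in all mice). *Pgm3* was selected because of this difference, so its genotype values are a description and carry no test. The other 9 were picked by function, with earlier results of these data known. None of them passed the test between genotypes, which 0.0% of all 14189 genes tested did.

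The study sequenced 1 liver RNA library from each of 6 mice, of which 3 were *Surf4* fl/fl Alb-Cre+ and 3 were Alb-Cre- littermates of the same floxed genotype. *Surf4* encodes a cargo receptor that carries secreted proteins out of the endoplasmic reticulum (ER), and both groups carry floxed exon 2 on both alleles on a C57BL/6J background. The *Alb-Cre* transgene expresses Cre recombinase from the albumin promoter, which is active in hepatocytes, and recombination in the other cells of the liver was not measured here. In each group replicates 1 and 3 are male and replicate 2 is female, the labels give no age, and the methods describe an overnight fast before samples were taken. Because RNA came from whole tissue, fewer cells of a type and less RNA per cell cannot be told apart.

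The hexosamine pathway turns fructose 6-phosphate, glutamine, acetyl-CoA and UTP into UDP-GlcNAc, the sugar donor for N-glycans, hyaluronan, heparan sulfate and the O-GlcNAc mark on nuclear and cytosolic proteins. Glutamine fructose-6-phosphate aminotransferase makes glucosamine 6-phosphate, GNPNAT1 acetylates it, PGM3 moves the phosphate from carbon 6 to carbon 1, and UAP1 joins the product to UTP. A salvage arm returns free GlcNAc to the pathway, and other enzymes take amino sugars back to glycolysis. In the liver, where most plasma glycoproteins are made, UDP-GlcNAc supplies the N-glycans of the secretory pathway.

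*Surf4* itself, on the minus strand at chr2:26920040-26933928 of GRCm38, had 59.0, 71.8 and 54.3 TPM in Alb-Cre+ mice 1 to 3 and 92.5, 94.5 and 92.5 TPM in Alb-Cre- mice 1 to 3. All Alb-Cre+ mice were below all controls, in the direction of the labels, with means of 61.7 ± 9.07 and 93.2 ± 1.17 TPM (SD, n = 3 each). The summed level counts the whole mRNA and so does not isolate the excised exon. On the log2(TPM + 0.1) scale the difference was -0.60 (SE 0.13), and it did not pass limma's test across all genes (adjusted p = 0.999904). At an adjusted p under 0.01, 0.0% of the 14189 genes tested were called, and at an unadjusted p under 0.05 the share was 1.76%. Differences per gene were therefore judged mainly by their interval and by whether the 3 mice of each group overlapped, which 4.9% of all genes did not.

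*Pgm3* encodes phosphoacetylglucosamine mutase and lies on the minus strand at chr9:86554377-86571842 of GRCm38. Its level was 7.16, 9.42 and 5.56 TPM in Alb-Cre+ mice 1 to 3 and 18.1, 16.0 and 14.8 TPM in Alb-Cre- mice 1 to 3. The groups did not overlap, and the highest Alb-Cre+ mouse, the female, stayed below the lowest control. Across all genes, 2.71% were lower in Alb-Cre+ mice without overlap. The means were 7.38 ± 1.94 and 16.3 ± 1.65 TPM (SD, n = 3 each), a ratio of 0.452. The log2 fold change was -1.16 (SE 0.22, 95% interval -1.67 to -0.65). *Pgm3* was chosen on this difference, so the interval and the ranks given below describe it and are no test. Between mice of the same replicate number it was -1.33, -0.76 and -1.40 for numbers 1, 2 and 3. Of 10635 genes that averaged 1 TPM or more, 44 had a lower log2 fold change than *Pgm3*. Of the 305 among them that were lower without overlap, 11 did.

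**Figure D1:**
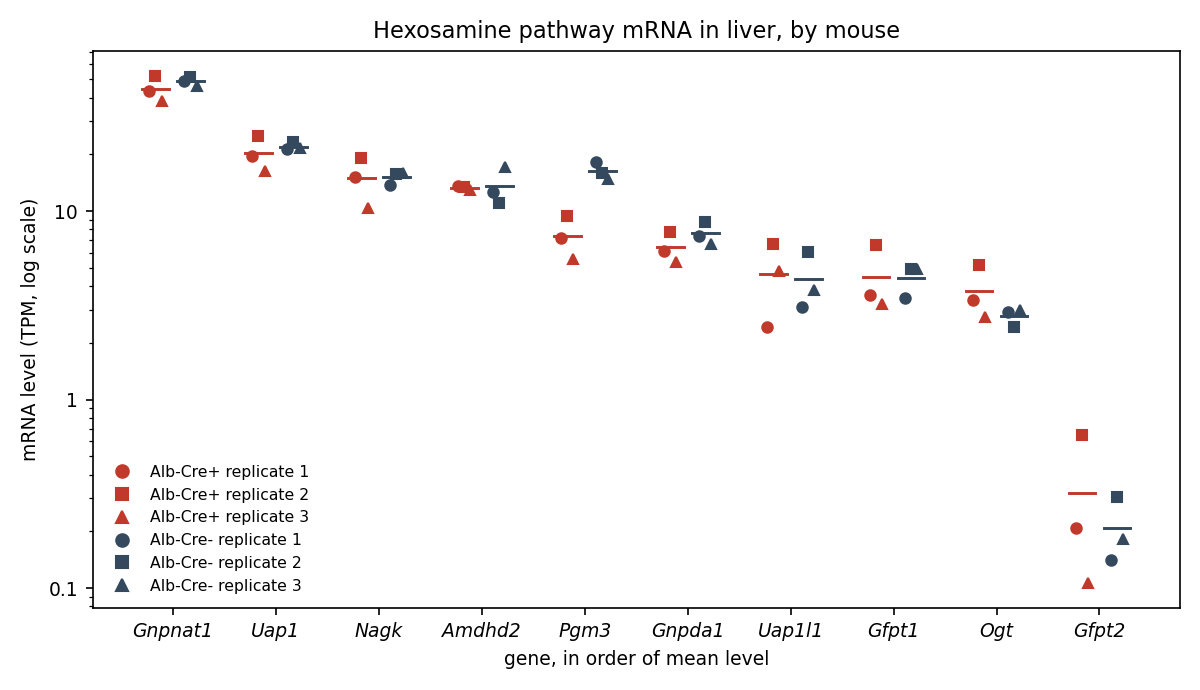
TPM of the 10 genes in each of the 6 mice, on a log axis, with genes in order of their mean level. Red symbols are Alb-Cre+ mice, dark symbols are Alb-Cre- mice, the symbol shape gives the replicate number and the short lines are group means. *Pgm3*, which was chosen on this difference, is the gene whose groups do not overlap.

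The sequence upstream of *Pgm3* is shown because *Pgm3* shares it with a neighbour. *Rwdd2a*, on the plus strand, starts 149 bases away in the opposite direction in GENCODE M21, so one short interval lies upstream of both genes. RefSeq (GRCm38.p6) places the starts slightly differently. Its interval from *Pgm3* to the nearest *Rwdd2a* start, chr9:86571843-86571987, reads as follows on the minus strand, in the direction of *Pgm3*. Capitals mark CCAAT read on the opposite strand (ATTGG), a motif bound by the general factor NF-Y.
Pgm3 and Rwdd2a: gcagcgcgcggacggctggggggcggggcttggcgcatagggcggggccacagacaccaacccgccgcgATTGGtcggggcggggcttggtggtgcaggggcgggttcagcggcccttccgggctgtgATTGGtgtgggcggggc
This interval has 145 bases, 75.9% of them G or C, and no exon annotated in GENCODE M21 overlaps it. The first bases of the CCAAT matches lie 76 and 17 bases before the start of *Pgm3*. Over the RefSeq window of 300 bases around each start, 37.4% of 32817 promoters hold CCAAT and 11.7% hold it at least 2 times, counting both strands. The GC box GGGCGG, which Sp1 binds, occurs 5 times before the start of *Pgm3* and is present in 35.6% of promoters.

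For comparison, the 250 bases before the start of *Gfpt1*, chr6:87042596-87042845 on the plus strand, are given with CCAAT and with CCACG on either strand (CGTGG on the opposite one) in capitals. *Gfpt1* encodes the liver enzyme at the entry to the pathway and is described in other systems as a target of XBP1, a transcription factor of the unfolded protein response.
Gfpt1: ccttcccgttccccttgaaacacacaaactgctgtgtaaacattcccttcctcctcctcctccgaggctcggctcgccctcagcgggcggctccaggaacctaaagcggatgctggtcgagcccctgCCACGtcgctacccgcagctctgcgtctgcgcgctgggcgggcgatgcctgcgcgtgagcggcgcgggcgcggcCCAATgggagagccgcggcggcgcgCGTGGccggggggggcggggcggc
CCAAT starts 49 bases before the start of *Gfpt1*, and CCACG starts 123 and 24 bases before it. CCACG alone is present in 32.8% of promoters. The ER stress element joins CCAAT and CCACG at a set spacing and is present in 0.119% of promoters. It was found in none of the 7 member promoters searched, those of *Pgm3*, *Gfpt1*, *Gfpt2*, *Uap1*, *Nagk*, *Amdhd2* and *Ogt*. *Amdhd2* held the E-box CACGTG 3 times, as did 0.0884% of all promoters, while 7.15% held it at all. Each match describes letters in the window and was not tested as a binding site.

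*Rwdd2a* had 0.130, 0.316 and 0.210 TPM in Alb-Cre+ mice and 0.343, 0.407 and 0.237 TPM in Alb-Cre- mice. Its level was far below that of *Pgm3*, and the groups overlapped. The log2 fold change was -0.45 (SE 0.37, interval -1.32 to 0.42), and the interval contains 0. *Dop1a*, on the other strand, overlaps the 3′ end of *Pgm3* by 1547 bases. Whether the libraries kept strand is not given in the sources used here, and reads from the overlap cannot be told apart without it. *Dop1a* differed by 0.14 (SE 0.26), in the opposite direction from *Pgm3*.

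Within 500 kb of *Pgm3* the annotation lists 18 other genes, of which 10 are in the table and 5 averaged 0.1 TPM or more. *Me1*, the cytosolic malic enzyme that makes NADPH for lipid synthesis, differed by -0.08 (SE 0.18). *Cyb5r4*, a cytochrome b5 reductase, differed by -0.14 (SE 0.14), and *Ube2cbp* by -0.02 (SE 0.30). None of the 5 had an unadjusted p under 0.05 in limma's test, against 1.76% of all genes. The groups overlapped in all of them, against 4.9% of all genes without overlap, so 5 genes at these shares say little.

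**Figure D2:**
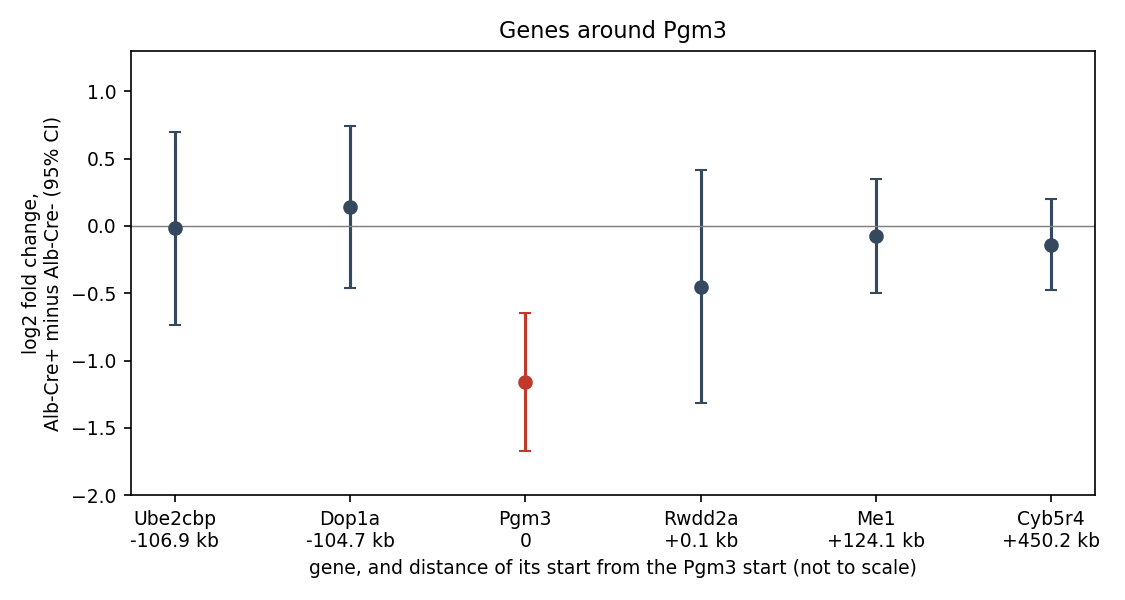
Log2 fold change (Alb-Cre+ minus Alb-Cre-) of *Pgm3*, in red, and of the 5 tested genes within 500 kb, in dark, ordered by the distance of each start from the *Pgm3* start. Bars are 95% intervals from limma over 6 mice. The intervals of the 5 neighbours include 0, and that of *Pgm3*, which was chosen on these values, is shown as a description.

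The pathway starts with *Gfpt1*, on the plus strand at chr6:87042846-87092197, which encodes the glutamine fructose-6-phosphate aminotransferase found in most tissues. *Gfpt1* had 3.57, 6.62 and 3.20 TPM in Alb-Cre+ mice and 3.45, 4.90 and 4.96 TPM in Alb-Cre- mice. The female Alb-Cre+ mouse was the highest of the 6 and the groups overlapped. The means were 4.47 ± 1.87 and 4.44 ± 0.852 TPM (SD, n = 3 each), and the log2 fold change was -0.05 (SE 0.32, interval -0.80 to 0.71). The interval reaches changes of more than 1.5-fold either way, so a moderate difference was not detectable with 3 mice per group.

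*Gfpt2*, at chr11:49794178-49838613 on the plus strand, encodes the second aminotransferase, which is known from nervous tissue and connective tissue cells. It was the lowest of the 10 genes, with 0.208, 0.645 and 0.107 TPM in Alb-Cre+ mice and 0.142, 0.303 and 0.183 TPM in Alb-Cre- mice. The female was the highest in each genotype. The log2 fold change was 0.26 (SE 0.53, interval -0.99 to 1.51), the widest interval of the 10.

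*Gnpnat1*, at chr14:45376334-45404913 on the minus strand, encodes the acetyltransferase that makes the substrate of PGM3. It was the most abundant of the 10, with 43.3, 52.0 and 38.6 TPM in Alb-Cre+ mice and 48.9, 51.7 and 46.2 TPM in Alb-Cre- mice. The groups overlapped, since the female Alb-Cre+ mouse was above every control. The log2 fold change was -0.14 (SE 0.14, interval -0.48 to 0.20).

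*Uap1*, at chr1:170141938-170174957 on the minus strand, encodes the pyrophosphorylase that takes the product of PGM3 to UDP-GlcNAc. Its level was 19.7, 25.1 and 16.4 TPM in Alb-Cre+ mice and 21.3, 23.2 and 21.5 TPM in Alb-Cre- mice. The Alb-Cre+ mice spanned the controls on both sides, and the log2 fold change was -0.13 (SE 0.18, interval -0.55 to 0.29). *Uap1l1*, at chr2:25359889-25365682 on the minus strand, encodes a related protein. It had 2.44, 6.68 and 4.82 TPM in Alb-Cre+ mice and 3.12, 6.08 and 3.83 TPM in Alb-Cre- mice, and the mice of each genotype differed among themselves more than the genotypes did (log2 fold change 0.04, SE 0.41).

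The ratio of *Pgm3* to another enzyme within a mouse does not depend on how that mouse's TPM are scaled. *Pgm3* stood at 0.165, 0.181 and 0.144 of *Gnpnat1* in Alb-Cre+ mice and at 0.370, 0.310 and 0.322 in Alb-Cre- mice. Its ratio to *Uap1* was 0.364, 0.376 and 0.340 in Alb-Cre+ mice and 0.849, 0.690 and 0.691 in Alb-Cre- mice. The Alb-Cre+ mice lay close together in this ratio, although their *Pgm3* levels ranged from 5.56 to 9.42 TPM. Against the geometric mean of *Gfpt1*, *Gnpnat1* and *Uap1*, the other 3 enzymes of the main route, *Pgm3* stood at 0.494, 0.459 and 0.440 in Alb-Cre+ mice and at 1.18, 0.887 and 0.873 in Alb-Cre- mice. The groups did not overlap in any of these ratios. They contain the *Pgm3* values that the gene was chosen on and are given without a test.

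**Figure D3:**
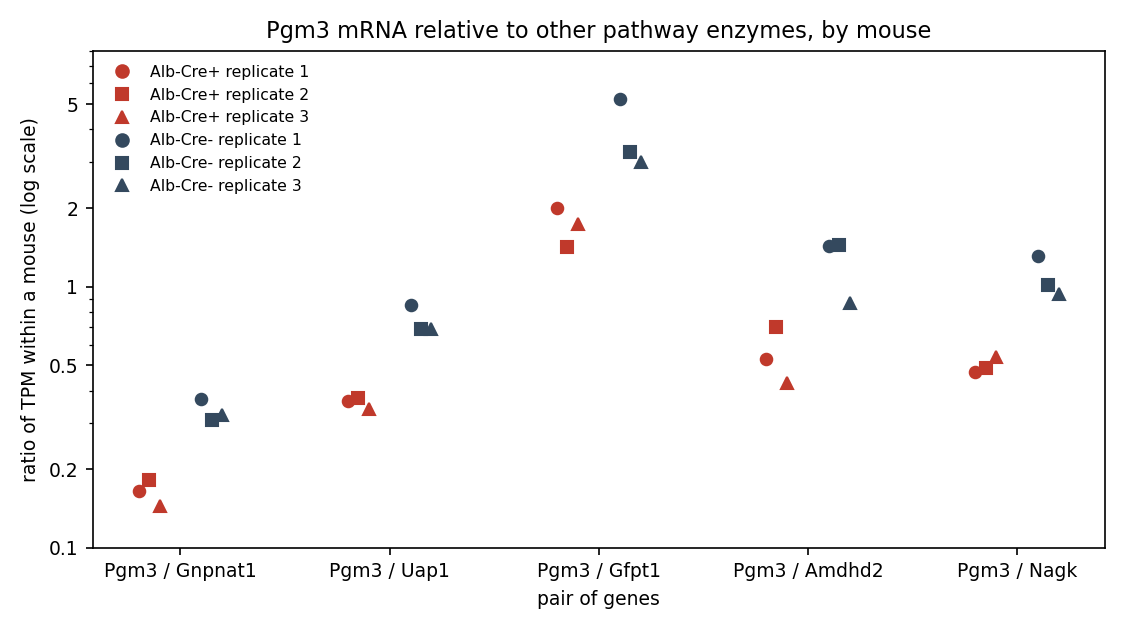
Ratio of *Pgm3* TPM to the TPM of 5 other enzymes within each mouse, on a log axis. Red symbols are Alb-Cre+ mice, dark symbols are Alb-Cre- mice, and the shape gives the replicate number. In each of the 5 pairs, the 3 Alb-Cre+ mice lie below the 3 Alb-Cre- mice.

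In the salvage arm, *Nagk*, at chr6:83794982-83804018 on the plus strand, encodes the kinase that phosphorylates free GlcNAc. It had 15.1, 19.2 and 10.3 TPM in Alb-Cre+ mice and 13.8, 15.7 and 15.9 TPM in Alb-Cre- mice. The Alb-Cre+ mice held both the highest and the lowest value, and the log2 fold change was -0.06 (SE 0.23, interval -0.62 to 0.49). *Amdhd2*, at chr17:24155833-24163766 on the minus strand, encodes the deacetylase that removes the acetyl group from GlcNAc 6-phosphate. Its level was 13.5, 13.4 and 13 TPM in Alb-Cre+ mice and 12.7, 11.1 and 17.1 TPM in Alb-Cre- mice, so here the controls were the more spread group. The log2 fold change was -0.01 (SE 0.19, interval -0.45 to 0.43).

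*Gnpda1*, at chr18:38327535-38339003 on the minus strand, encodes the deaminase that returns glucosamine 6-phosphate to fructose 6-phosphate. It had 6.16, 7.74 and 5.39 TPM in Alb-Cre+ mice and 7.39, 8.78 and 6.69 TPM in Alb-Cre- mice. The groups overlapped, but within each replicate number the Alb-Cre+ mouse was the lower one, by -0.26, -0.18 and -0.31 on the log2 scale. Of all genes, 12.4% were lower in all 3 such pairs. The log2 fold change was -0.25 (SE 0.20, interval -0.73 to 0.23), and limma's unadjusted p with the replicate number as a block was 0.106.

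*Ogt*, at chrX:101640060-101684351 on the plus strand, encodes the transferase that uses UDP-GlcNAc to place O-GlcNAc on nuclear and cytosolic proteins. Its level was 3.37, 5.20 and 2.75 TPM in Alb-Cre+ mice and 2.92, 2.42 and 2.99 TPM in Alb-Cre- mice. The female Alb-Cre+ mouse was the highest of the 6 and the female control the lowest. The means were 3.77 ± 1.27 and 2.78 ± 0.314 TPM (SD, n = 3 each), and the log2 fold change was 0.39 (SE 0.28, interval -0.28 to 1.05). *Oga*, which encodes the enzyme that removes O-GlcNAc, had 7.59, 12.3 and 7.85 TPM in Alb-Cre+ mice and 9.98, 10.1 and 11 TPM in Alb-Cre- mice, with a log2 fold change of -0.20 (SE 0.22).

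Of the 9 genes other than *Pgm3*, 6 had a log2 fold change below 0 and 3 above, with a median of -0.05, against 50.4% below 0 and a median of 0.00 over all 14189 genes. None had an adjusted p under 0.01 in limma, as 0.0% of all genes did. None had an unadjusted p under 0.05 (smallest 0.213), against 1.76% of all genes, and none separated the groups, against 4.9%. The smallest unadjusted p with the replicate block was 0.106, that of *Gnpda1*. In 7 of the 9, the highest mouse was the female Alb-Cre+ mouse, which was also the highest for 45.8% of all genes. The size factors of the 6 mice by median of ratios ran from 0.874 in Alb-Cre+ mouse 3 to 1.15 in that female.

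The 10 genes were also compared between the 4 male and 2 female mice with genotype in the model, a contrast that did not choose them. On the log2 scale, 9 of 10 were higher in females, with *Amdhd2* the exception at 0.19 (male minus female). *Gfpt2* differed by -1.09, *Uap1l1* by -0.87, *Gfpt1* by -0.59 and *Gnpda1* by -0.37, with unadjusted p of 0.0214, 0.0208, 0.0475 and 0.0458 in limma. *Gfpt2* was at -0.34 with a pseudocount of 1 TPM and at -0.62 without the female Alb-Cre+ mouse, *Gfpt1* at -0.24 without that mouse, and *Gnpda1* at -0.17 with median-of-ratios scaling. None passed an adjusted p of 0.01 (smallest 0.113), whereas 0.514% of all genes did in either direction. All genes had a median of -0.26 in this contrast, and 25.6% of them were higher in females at an unadjusted p under 0.05. With median-of-ratios scaling the median of all genes was -0.07 and the share was 16.6%. *Gfpt2* was then the remaining member at an unadjusted p under 0.05 in limma, with a difference of -0.95 (SE 0.32). *Pgm3* differed by -0.27 between the sexes (SE 0.20).

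*Gfpt2* had 0.645 and 0.303 TPM in the females and 0.107 to 0.208 TPM in the males. Kupffer cell markers summed to 291 and 252 TPM in the same females and to between 82.8 and 124 TPM in the males. The females were also above all males for the sum of stellate cell markers (199 and 207 against 73.0 to 153 TPM). *Dcn* alone held 182 and 191 TPM of it in the females, and *Lrat*, *Col1a1* and *Col3a1* overlapped between the sexes. The same held for the sums of sinusoidal endothelial markers (188 and 166 against 77.0 to 132 TPM) and lymphocyte markers (6.11 and 8.20 against 2.78 to 4.85 TPM). Within these lists, *Kdr*, *Cd79a*, *Ms4a1* and *Nkg7* overlapped between the sexes. Cholangiocyte markers overlapped between the sexes. The part of any of these cells in the *Gfpt2* values was not tested. Both females were above all males in 5 of the 10 genes and in 36.6% of all genes. Since both females carry replicate number 2, sex cannot be told apart from whatever else those mice share.

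The genotype difference was set against sex in a model with an interaction. *Ogt*, an X-linked gene, had a log2 fold change of 0.04 in males and 1.07 in the pair of females, a difference of 1.03 (SE 0.34, unadjusted p = 0.0355, adjusted p = 0.775 in limma). There was 1 female per genotype, so this SE and p rest on the spread among the 4 males and assume that females vary alike. At an unadjusted p under 0.05, 6.08% of all genes differed in this way. For *Pgm3* the log2 fold change was -1.36 in males and -0.76 in the pair of females, given as a description.

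By mean level over the 6 mice, the order was *Gnpnat1* (46.8 TPM), *Uap1* (21.2), *Nagk* (15), *Amdhd2* (13.5), *Pgm3* (11.9), *Gnpda1* (7.02), *Uap1l1* (4.5), *Gfpt1* (4.45), *Ogt* (3.27) and *Gfpt2* (0.265). *Gnpnat1* in every mouse was above *Uap1* in every mouse, and *Ogt* in every mouse was above *Gfpt2* in every mouse. The neighbours *Nagk* and *Amdhd2* kept their order in 4 of 6 mice, *Amdhd2* and *Pgm3* in 4 of 6, and *Uap1l1* and *Gfpt1* in 3 of 6, so these neighbours were not separated beyond their spread. *Pgm3* was the fifth of the 10 in every Alb-Cre+ mouse, and was the third in Alb-Cre- mice 1 and 2 and the fifth in Alb-Cre- mouse 3. The entry enzyme *Gfpt1* was below *Gnpnat1*, *Pgm3* and *Uap1* in both groups.

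The deposited rows are transcripts, and the transcript with 13 exons and a coding sequence of 1626 bases carried most of *Pgm3*. It had 5.97, 8.67 and 4.77 TPM in Alb-Cre+ mice and 15.5, 13.2 and 13.7 TPM in Alb-Cre- mice. Its share of the gene's TPM was 87.1 ± 4.48% in Alb-Cre+ mice and 86.8 ± 5.02% in Alb-Cre- mice (SD, n = 3 each; two-sided exact permutation test, p = 1.0, where 3 against 3 mice cannot go below 0.1). A second coding transcript of *Pgm3* lacks exon 11, at chr9:86557503-86557625, and its coding sequence has 1503 bases. The exon is shown because it is what separates both forms. All 123 of its bases are coding and their number is a multiple of 3, so both forms share a reading frame.
Pgm3 exon 11: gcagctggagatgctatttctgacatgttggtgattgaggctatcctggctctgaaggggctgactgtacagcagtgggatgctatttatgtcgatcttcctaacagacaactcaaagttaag
The form without exon 11 took 2.20, 0 and 0% of the coding TPM in Alb-Cre+ mice and 5.27, 8.30 and 0% in Alb-Cre- mice (exact permutation p = 0.4). It was listed at 0 in 3 of 6 mice, in both genotypes.

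*Uap1* was split between forms with and without an alternative exon 9, chr1:170147996-170148046 on the minus strand. The enzyme is known in 2 isoforms that differ by a short insert from this exon. In the deposited table the exon occurs with 51 or with 48 bases, and the capitals mark the bases present only in the longer version.
Uap1 exon 9: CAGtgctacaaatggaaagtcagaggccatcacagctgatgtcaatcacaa
Forms with this exon took 58.4, 51.2 and 43.1% of the coding *Uap1* TPM in Alb-Cre+ mice and 53.5, 57.4 and 61.2% in Alb-Cre- mice. The means were 50.9 ± 7.65% and 57.4 ± 3.86% (SD, n = 3 each), and the groups overlapped (exact permutation p = 0.3). The coding form without the exon had 8.33 ± 1.60 TPM in Alb-Cre+ mice and 8.30 ± 0.674 TPM in Alb-Cre- mice (SD, n = 3 each), and the form with 51 bases had 7.25 ± 1.77 TPM and 9.16 ± 1.01 TPM, so neither led in both groups.

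**Figure D4:**
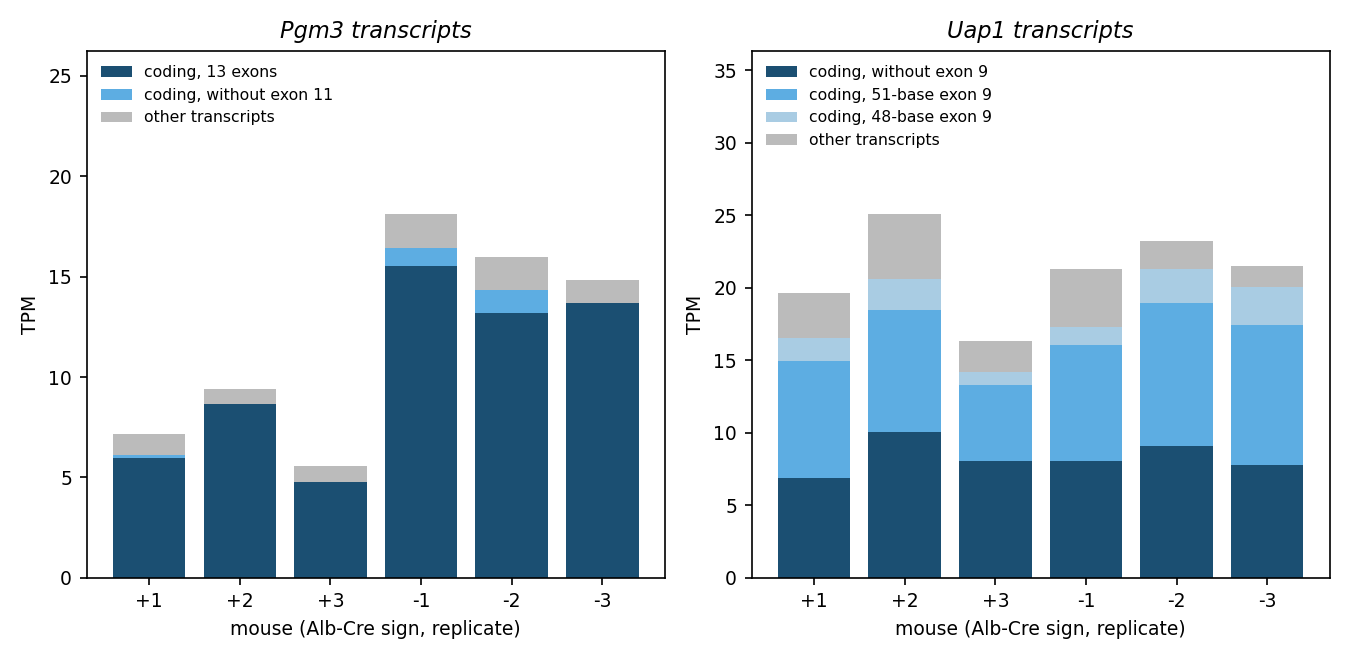
Stacked TPM of the transcripts of *Pgm3* (left) and *Uap1* (right) in each mouse, where +1 to +3 are Alb-Cre+ mice and -1 to -3 Alb-Cre- mice. Colours separate the coding forms and grey is the sum of all other transcripts. The 13-exon form makes up most of *Pgm3* in every mouse, while *Uap1* is divided among 3 coding forms.

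*Gfpt1* has an alternative exon 9 of 48 bases that is known from skeletal and heart muscle, at chr6:87060785-87060832.
Gfpt1 exon 9: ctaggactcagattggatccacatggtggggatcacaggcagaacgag
The coding transcript with this exon was listed at 0.0443 TPM in the female Alb-Cre+ mouse and at 0 in the other 5 mice. The form without it took between 82.1 and 90.6% of *Gfpt1* TPM. The leading transcript's share did not separate the genotypes in any of the 10 genes, with exact permutation p-values from 0.3 to 1.0. Of 39 transcripts tested of the 9 genes other than *Pgm3*, 0 had an unadjusted p under 0.05 in limma, against 2.84% of 41627 transcripts.

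Other genes that make, move or use UDP-GlcNAc were described by list. In none of these lists did a gene pass an adjusted p of 0.01, which 0.0% of all genes did. The list of O-GlcNAc cycling genes and of paralogs of the members holds *Oga*, *Eogt*, *Gnpda2* and the phosphoglucomutases *Pgm1*, *Pgm2*, *Pgm2l1* and *Pgm5*. Of its 7 genes 3 were higher and 4 lower, and the median difference on the log2 scale was -0.14. *Pgm1*, which interconverts glucose 1-phosphate and glucose 6-phosphate, had 122.3 ± 10.8 TPM in Alb-Cre+ mice and 119 ± 8.11 TPM in Alb-Cre- mice (SD, n = 3 each), a log2 fold change of 0.04 (SE 0.12). Among phosphoglucomutases that passed the minimum level, *Pgm3* was the one whose groups did not overlap, as in 4.9% of all genes. *Pgm3* was chosen for this difference, so its contrast with the paralogs was set in advance and is a description.

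In the sialic acid branch, which starts from UDP-GlcNAc with the epimerase and kinase GNE, 2 of 7 genes were higher and 5 lower, with a median of -0.22. *Gne* had 87.6, 65.4 and 67.4 TPM in Alb-Cre+ mice and 96.9, 62.8 and 99.7 TPM in Alb-Cre- mice, with a log2 fold change of -0.22 (SE 0.21). *Nanp*, the phosphatase of the branch, and *Npl*, the lyase that breaks sialic acid down, were lower in all 3 pairs, as were 12.4% of all genes. Their log2 fold changes were -0.41 (SE 0.23) and -0.29 (SE 0.36). Neither had an unadjusted p under 0.05 with or without the block in limma.

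Of 6 genes for the UDP-sugar epimerase, the GalNAc kinase and nucleotide sugar transporters, 2 were higher and 4 lower, with a median of -0.05. Of 17 transferases that use UDP-GlcNAc, 13 passed the minimum level, and 2 of these were higher and 11 lower, with a median of -0.06. *Mgat2*, which adds the second antenna of complex N-glycans, was the member of this list without overlap, as were 4.9% of all genes. It had 27.9, 31.1 and 25.5 TPM in Alb-Cre+ mice and 23.8, 22.0 and 25.4 TPM in Alb-Cre- mice, so that the nearest mice of both groups were almost equal, and the log2 fold change was 0.24 (SE 0.13). *Dpagt1*, which starts the dolichol-linked glycan in the ER, differed by -0.13 (SE 0.16).

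Among 12 genes for the entry of hexose phosphates, 7 were higher and 5 lower, with a median of 0.01. *Gpi1*, whose enzyme makes fructose 6-phosphate, differed by 0.11 (SE 0.21), and *Ugp2*, which makes UDP-glucose, by 0.22 (SE 0.12). Each of these 5 lists had 0 genes at an unadjusted p under 0.05 in limma, with or without the replicate block, under which the share over all genes was 4.69%.

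*Xbp1* and 9 of its targets formed the last list, which was written with earlier results on *Derl3* known. Of 10 genes 8 were higher and 2 lower, the median difference was 0.27 on the log2 scale, and 3 separated the groups, against 4.9% of all genes. An unadjusted p under 0.05 in limma was reached by 2 of the 10 (1.76% of all genes), and by 4 with the replicate block (4.69%). *Derl3* is in each of these counts, so they are no independent evidence. *Derl3*, which encodes a component of ER-associated degradation, had 5.62, 6.25 and 14.4 TPM in Alb-Cre+ mice and 0.977, 0.590 and 0.822 TPM in Alb-Cre- mice. Its log2 fold change of 3.19 (SE 0.40) had an adjusted p of 0.456 in limma, and *Derl3* did not pass the threshold. The paper, which used DESeq2 on these livers, reports *Derl3* as its most significantly upregulated gene. *Sdf2l1*, an ER chaperone component, differed by 0.85 (SE 0.28) and *Pdia6*, a disulfide isomerase, by 0.44 (SE 0.20). *Xbp1* itself had 94.8, 199.5 and 76.4 TPM in Alb-Cre+ mice and 101, 107 and 96.3 TPM in Alb-Cre- mice, and the groups overlapped. The high *Xbp1* value was again the female Alb-Cre+ mouse.

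**Figure D5:**
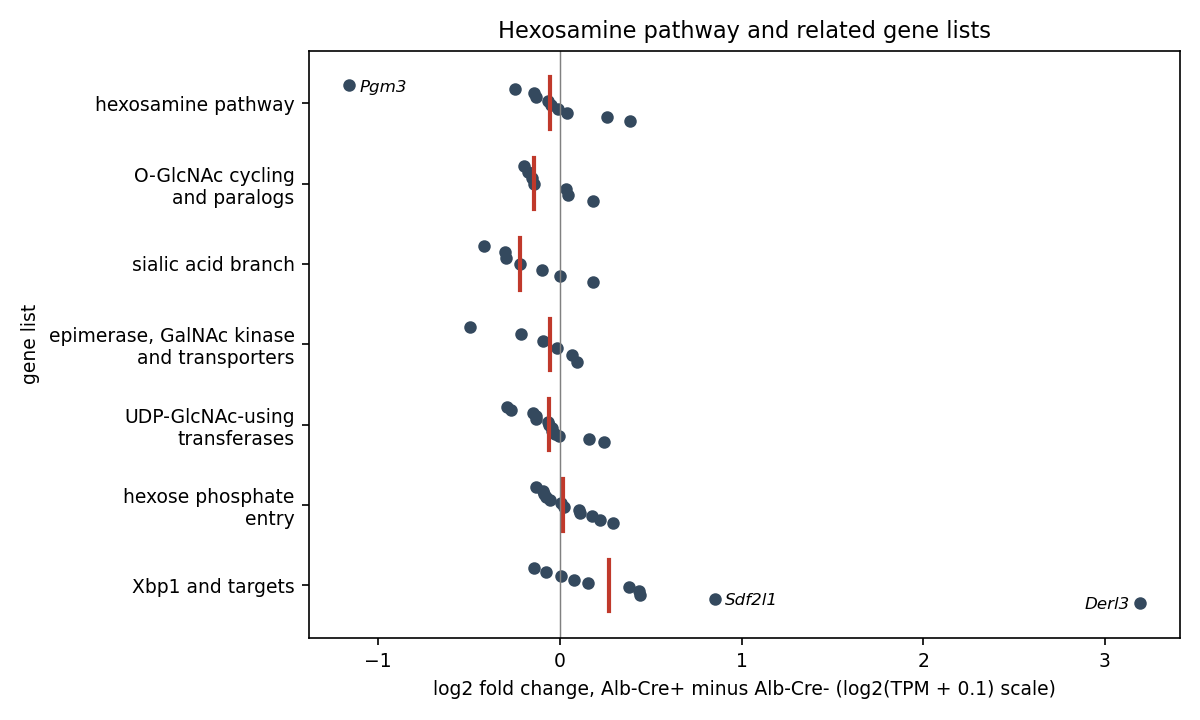
Log2 fold change (Alb-Cre+ minus Alb-Cre-) of each tested gene in the hexosamine pathway and 6 related lists, with the median of each list as a red line. *Pgm3* at -1.16, which was chosen on this difference, lies apart from the rest of its list. *Derl3* at 3.19 and *Sdf2l1* at 0.85 are the genes named in the last list.

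The genes whose levels over the 6 mice were most like those of *Pgm3*, among 10634 others that averaged 1 TPM or more, were *D8Ertd738e* (Pearson's r = 0.997), *Surf4* (0.987), *Fads2* (0.984), *Tmem208* (0.979) and *Tmem70* (0.971). All 6 mice and both genotypes enter each r, so genes that differ between genotypes rank high by construction. *Fads2*, the delta-6 desaturase of polyunsaturated fatty acid synthesis, had 73.2, 88.5 and 52.5 TPM in Alb-Cre+ mice and 189, 218 and 174 TPM in Alb-Cre- mice. *D8Ertd738e* varied little, from 167 to 192 TPM. These are descriptions over 6 mice.

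Markers of other liver cells were summed, with 6 genes per list. Kupffer cell markers (*Clec4f*, *Vsig4* and others) added up to 124, 291 and 82.8 TPM in Alb-Cre+ mice and 119, 252 and 101 TPM in Alb-Cre- mice. Stellate cell markers ranged from 97.7 to 199 TPM and from 73.0 to 207 TPM, sinusoidal endothelial markers from 77.0 to 188 TPM and from 106 to 166 TPM. Cholangiocyte markers ranged from 23.7 to 39.8 TPM in Alb-Cre+ mice and from 15.3 to 60.2 TPM in Alb-Cre- mice, and lymphocyte markers from 3.21 to 6.11 TPM and from 2.78 to 8.20 TPM. The groups overlapped in each of these 5 sums, no marker was at 0 in any mouse, and their part in the *Pgm3* difference was not tested. Hepatocyte markers added up to between 58332 and 79895 TPM in Alb-Cre+ mice and between 76166 and 84683 TPM in Alb-Cre- mice. *Alb* made up most of each sum, with 38059 to 55647 TPM in Alb-Cre+ mice and 47313 to 54138 TPM in Alb-Cre- mice. *Hnf4a*, a hepatocyte transcription factor, had 251, 356 and 265 TPM in Alb-Cre+ mice and 230.4, 297 and 293 TPM in Alb-Cre- mice, and its groups overlapped. Among the markers of all lists, 3 had no overlap, against 4.9% of all genes. These were *Apoa1* (log2 fold change -0.91, SE 0.24) and *Ttr* (-0.37, SE 0.18), which encode plasma proteins, and the stellate cell collagen *Col3a1* (-0.45, SE 0.24). All of these missed an adjusted p of 0.01 in limma. The unadjusted p of *Ttr* was 0.0771 in limma and 0.0342 with the replicate block. Of the 6 hepatocyte markers, 3 were higher and 3 lower. *Alb* (-0.07, SE 0.34) had the sign of *Apoa1* and *Ttr*. *Cps1* (0.19, SE 0.19), *Hnf4a* (0.08, SE 0.18) and *Serpina1c* (0.02, SE 0.42) had the opposite sign. Of the 6 stellate cell markers, 3 were higher and 3 lower. *Col1a1* (-0.36, SE 0.30) and *Des* (-0.05, SE 0.39) had the sign of *Col3a1*. *Reln* (0.67, SE 0.70), *Lrat* (0.29, SE 0.42) and *Dcn* (0.07, SE 0.42) had the opposite sign. Of the 6 Kupffer cell markers, 2 were higher and 4 lower, with a median of -0.08. *Marco* (0.64, SE 0.59) was the 1 of them that was higher in all 3 pairs, with groups that overlapped. Its unadjusted p in limma was 0.31, and 0.0219 with the replicate block, under which 4.69% of all genes were below 0.05. Across all genes, 23.9% had the same direction in all 3 pairs.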

How the data were processed

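The authors deposited TPM per transcript and mouse, length-corrected abundances that add up to 1000000 per mouse. Per the labels, the processing notes name STAR, RSEM and Salmon with GRCm38, while the methods describe STAR and RSEM, so which tool made the TPM is uncertain. TPM keep no read numbers, and depth is unknown here. The authors' DESeq2 comparison was also deposited (fold changes and p-values) and was not used.

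TPM were summed per gene symbol, leaving out 163 transcripts without one (0.0515 to 0.0887% of TPM). A gene was tested if it averaged 0.1 TPM or more, on the log2(TPM + 0.1) scale, using limma 3.58.1 under R 4.3.3 (trended empirical Bayes, two-sided, Benjamini-Hochberg over all genes, threshold 0.01). The members and lists were chosen with earlier results of these data known. Named genes are the members, *Surf4*, list members without overlap, genes within 500 kb of *Pgm3* and the 5 most correlated with it. Others, such as *Oga*, *Gne*, *Nanp*, *Npl*, *Xbp1*, *Pgm1*, *Dpagt1*, *Gpi1*, *Ugp2*, *Hnf4a*, *Reln*, *Lrat* and *Marco*, were picked for their role or their values after the values were seen. Same-numbered mice deviated together (correlations across genes of 0.367, 0.588 and 0.370, different numbers -0.444 to 0.171). The numbers were therefore treated as pairs in a blocked fit. Its values are given for some genes and counts only. The female is replicate 2 in both groups, so pairing and sex cannot be told apart for that pair. Transcript structures came from GENCODE M21, which holds all 71 member transcripts under other versions. Promoters came from RefSeq (GRCm38.p6). The fit was also run on simulated data, in which mice varied independently, unlike the same-numbered mice here. No result is drawn from that run. A further gene list is not reported here.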

Additional observations from a re-analysis of the deposited data

How the results depend on the processing

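Several members other than *Pgm3* lay close to 0 and crossed it when 1 mouse was left out: *Gfpt1* ranged from -0.36 to 0.15 on the log2 scale, *Gfpt2* from -0.26 to 0.66, *Uap1* from -0.29 to 0.014, *Uap1l1* from -0.28 to 0.43, *Nagk* from -0.27 to 0.17 and *Amdhd2* from -0.15 to 0.16. *Amdhd2* was also at 0.00067 with median-of-ratios scaling, with or without the replicate block. *Pgm3* ranged from -1.35 to -0.98 without 1 mouse and from -1.16 to -1.07 under the other settings, and its sign could not change when a mouse was left out, since it was chosen with groups that do not overlap. For the difference male minus female, the leave-one-out range crossed 0 for *Pgm3* (-0.57 to 0.035), *Amdhd2* (-0.017 to 0.41) and *Ogt* (-0.75 to 0.28).

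The number of genes at an adjusted p under 0.01 in limma was 0, and from 0 to 1 without 1 mouse, with the call made without Alb-Cre+ replicate 1. The number at an unadjusted p under 0.05 was 250, against 666 with the replicate block, 531 with sex as a term, 442 with no filter, 780 with the block and median of ratios and 651 with the block and a pseudocount of 1 TPM. Without 1 mouse it ran from 183 to 506, and 506 was reached without Alb-Cre+ replicate 2. The replicate block changed no call of a member. The cause of these changes was not tested. With 3 mice per group and unknown depth, intervals of *Gfpt1*, *Gfpt2*, *Uap1l1*, *Ogt* and *Nagk* span more than 1 log2 unit without the block. Differences within them were not detectable in that fit. With the block, the interval of *Uap1l1* was -0.43 to 0.51, and those of *Gfpt1*, *Gfpt2*, *Ogt* and *Nagk* still spanned more than 1 log2 unit. The combined settings with the block and the genotype by sex interaction were chosen after the data were seen.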
